A study of Mus musculus with 8 samples.

Results

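The odorant signal transduction cascade of olfactory sensory neurons was followed through 9 genes: Gnal, Gnb1 and Gng13, which encode the subunits of the olfactory G protein; Ric8b, its exchange factor; Adcy3, the adenylyl cyclase; Cnga2, Cnga4 and Cngb1, the subunits of the cyclic nucleotide-gated channel; and Ano2, a calcium-activated chloride channel. The members were chosen by name, not by a measured value, but with earlier results of these data known. All 9 of 9 were found among the 21765 gene symbols of the deposited table. They were also among the 16097 genes tested (mean TPM, transcripts per 1000000, of at least 1). The study sequenced RNA from polysomes of the mouse main olfactory epithelium in 8 libraries. Its groups were early and late polysomes of wild-type mice (WT, Mex3a flox/flox or flox/+ without Cre) and of conditional knockouts (cKO, Mex3a flox/flox with Cre), with 2 libraries in each of the 4 groups. In all groups the tissue was put in 100 µg/mL cycloheximide, which holds ribosomes on their transcripts, and lysates were separated on sucrose gradients. Early polysomes were fractions 27 to 34 and late polysomes the denser fractions 35 to 42. Mice carried floxed alleles in both groups, and no ages are given in the labels used here. The design text of the series speaks of sorted cells and HyperTRIBE transgenes, whereas the sample labels name tissue lysates of the epithelium and no transgene. The sample labels were followed, and markers of supporting cells, glands, glia and basal cells were present in every library.

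An odorant receptor that binds its ligand releases the alpha subunit encoded by Gnal from the beta and gamma subunits in the sensory cilium, and the alpha subunit turns on adenylyl cyclase 3. The cyclic AMP it makes opens the cyclic nucleotide-gated channel, calcium enters, and calcium opens the chloride channel ANO2, which carries chloride out of the cell and amplifies the current. Mex3a encodes an RNA-binding protein, and the comparison asked how its loss bears on the place of transcripts in the polysome gradient.

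Mex3a itself was at 88.9 to 119 scaled TPM in the 4 WT libraries and at 11.0 to 21.3 in the 4 cKO libraries. Scaled TPM is TPM divided by a factor of 0.931 to 1.06 per library that sets the median gene level. One library, replicate 2 of WT early, is tagged with the cKO genotype although its title says WT; its Mex3a level was 119, and it was kept as WT. Whole reads inferred from the steps of the TPM values summed to 7776792 to 12771079 per library, lowest in cKO late replicate 2, and each member rested on at least 476 reads in every library (Gng13, cKO late replicate 2). Correlations across genes between the 2 libraries of a group were 0.978 to 0.985. Markers of mature olfactory sensory neurons summed to 5854 to 15593 scaled TPM per library, with 5 of 5 in the table and Omp at a mean of 3658. Since nothing says which libraries came from separate animals beyond the lysate names, p-values measure the spread between these samples. TPM is relative within a library, so a value tells the share of a transcript in that fraction's RNA, and in a mixture of cell types fewer cells of a type and less RNA per cell cannot be told apart.

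Sequences are given for the short coding region of Gng13 and for a motif near several start sites. Gng13 encodes a G protein gamma subunit and has the shortest coding sequence of the members, 67 codons in GENCODE vM21 (GRCm38, gene at chr17:25717171-25719406, plus strand). It is printed in full because Gng13 was also the member with the largest fall from early to late polysomes. The start and stop codons are in capitals:

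Gng13 coding sequence: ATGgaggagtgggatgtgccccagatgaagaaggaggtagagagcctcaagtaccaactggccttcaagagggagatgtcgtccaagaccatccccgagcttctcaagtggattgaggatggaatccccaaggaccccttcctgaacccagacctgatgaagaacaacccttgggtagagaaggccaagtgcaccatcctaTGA

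Early B-cell factors are transcription factors that bind a palindromic site whose core is CCCNNGGG. A search of RefSeq promoters on GRCm38 (250 bases before to 50 after each start, both strands, the motif being its own reverse complement) found these letters for 5 of the 8 members in the table, against 15.4% of all genes with such promoters. The same letters with a T before and an A after them were found for 0 of the 8, against 1.06% of all genes. Gnal was not matched in the promoter table. Counted by promoter, CCCNNGGG was in 13.7% of the 32851 searched. Ano2, Gng13 and Adcy3 each have multiple listed promoters, which gives them more places for a match. The matches upstream of a start site are printed with 20 bases on each side and the motif in capitals. In Gng13 a pair of overlapping matches share the capitals, and the Ano2 match lies before the third of its 3 listed starts. The Cnga4 match lay 24 bases after its start and is not printed. A match describes letters only; these data measured RNA on polysomes and no binding.

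Gng13, chr17:25717057-25717105, plus strand: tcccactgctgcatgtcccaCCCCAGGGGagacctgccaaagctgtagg
Cnga2, chrX:71991763-71991810, plus strand: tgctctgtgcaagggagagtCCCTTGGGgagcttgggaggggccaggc
Cngb1, chr8:95306687-95306734, minus strand: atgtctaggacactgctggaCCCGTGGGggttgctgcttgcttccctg
Ano2, chr6:125711101-125711148, plus strand: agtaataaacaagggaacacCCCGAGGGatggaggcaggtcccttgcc

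Late polysomes held more of most cascade transcripts than early polysomes, while the beta and gamma subunits of the G protein went the other way. On the mean of both genotypes, Adcy3, Cnga4, Ano2, Cngb1, Gnal and Cnga2 were higher in late polysomes and Gng13 and Gnb1 lower. Changes ran from a 3.31-fold fall of Gng13 to a 2.99-fold rise of Adcy3. Ric8b did not pass the test. Thus 8 of 9 members were called (limma, Benjamini-Hochberg adjusted p under 0.05 over all genes tested), where 68.9% of all genes were called; 6 members were higher, against 34.3% of all genes, and 2 lower, against 34.6%. Most genes of the table were thus called, so being called does not set a member apart. The 4 late libraries lay wholly above the 4 early libraries for 6 members and wholly below for 2, against 31.5% and 30.9% of all genes. The median change of the members was 0.48 on the log2 scale, beside -0.01 over all genes tested. Markers of several other cell types were also higher in late polysomes: 5 of 5 sustentacular markers (median 1.04), 3 of 4 for horizontal basal cells (0.84), 3 of 4 for ensheathing glia (0.80; 1 lower) and 3 of 4 for glands (0.58). Of the leukocyte markers 2 of 3 were lower. Of the mature neuron markers 2 were higher and 3 lower (median -0.76). The part of these shifts in the members' values was not tested.

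**Figure D1:**
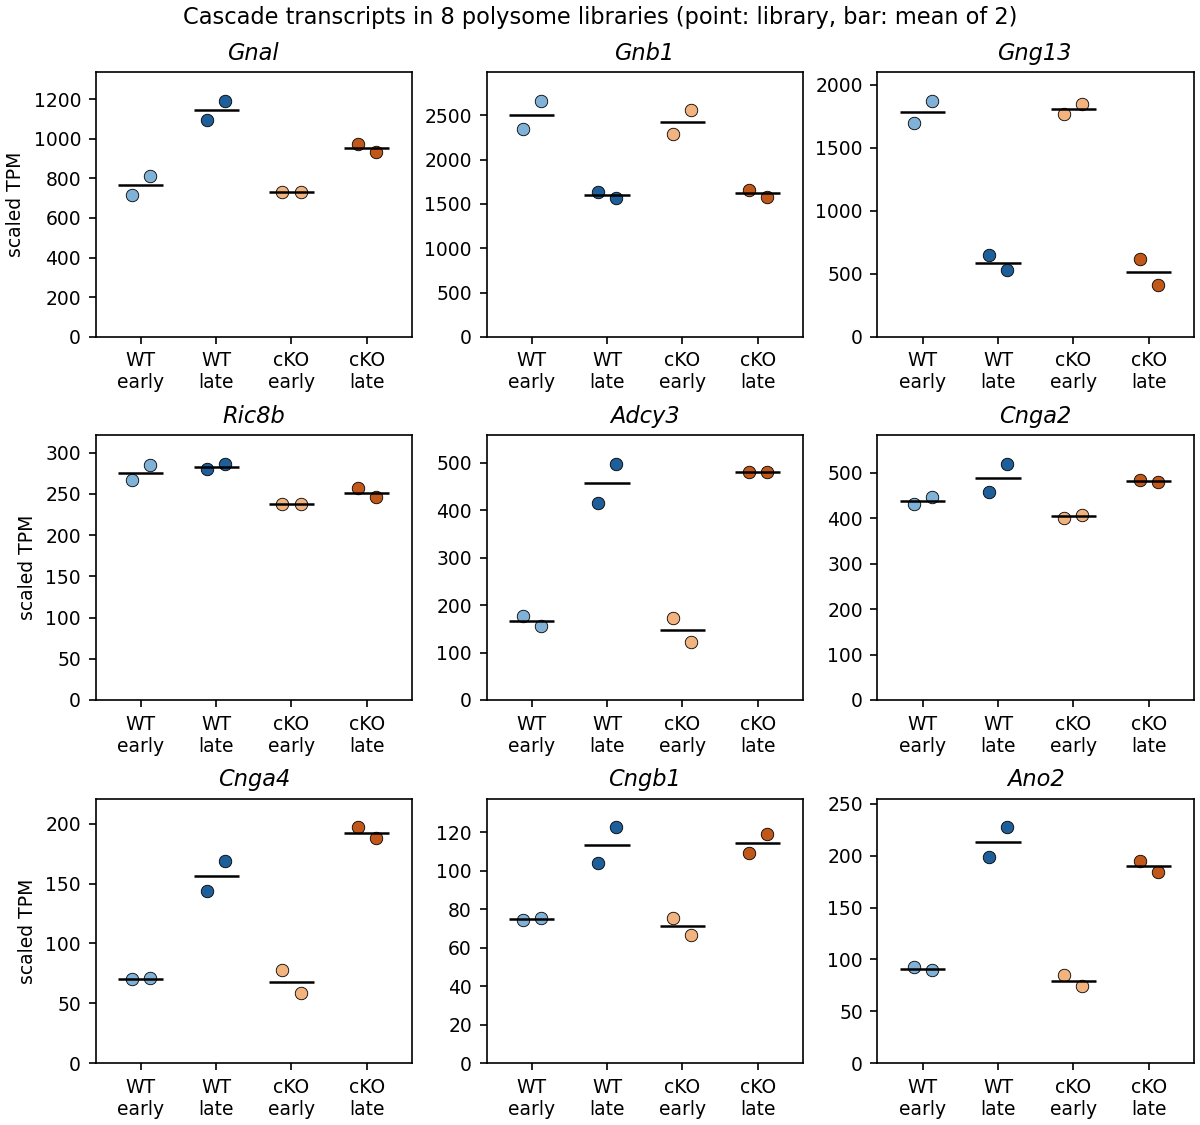
Scaled TPM (y axis, from 0) of the 9 cascade genes in the 4 groups (x axis); each point is 1 of the 2 libraries of a group and the bar their mean. Late libraries sit above early ones for 6 genes, below them for Gnb1 and Gng13, and overlap them for Ric8b.

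Among the G protein genes, Gng13 moved most. In WT it stood at 1696 and 1873 scaled TPM in the early libraries and at 646 and 532 in the late ones, and in cKO at 1767 and 1849.8 early against 616 and 407 late (replicates 1 and 2, here and for every member). Every late library was below every early one, and cKO late replicate 2, the shallowest library, was the lowest. The late minus early difference was -1.73 on the log2 scale (SE 0.14, adjusted p 2.7e-05). By lysate the change ran from -1.39 (WT lysate 1) to -2.18 (cKO lysate 2).

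Gnb1 encodes the beta subunit, which many cell types share. WT libraries held 2343 and 2667 scaled TPM early and 1638 and 1570.1 late, and cKO libraries 2293 and 2564 early and 1661 and 1577 late. Early and late libraries did not overlap, and the genotypes interleaved within each fraction. On the log2 scale the difference was -0.61 (SE 0.11, adjusted p 0.00104).

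Gnal encodes the alpha subunit that activates the cyclase. Early libraries held 716 and 812 scaled TPM of it in WT and 732 and 733 in cKO; late libraries held 1093 and 1193 in WT and 973 and 931 in cKO. Late libraries were again apart from early ones, here above them, with WT late highest. Gnal rose by 0.48 on the log2 scale (SE 0.09, adjusted p 0.00124).

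The transcripts of the 3 subunits of one heterotrimer therefore stood in different proportions in the fractions. Per length, Gng13 was 2.31 to 2.52 times the level of Gnal in the 4 early libraries and 0.437 to 0.633 times in the 4 late ones. The ratio of Gnal to Gnb1 went from 0.286 to 0.319 in early to 0.586 to 0.760 in late libraries. For Gng13 to Gnb1 it was 0.703 to 0.771 in early and 0.258 to 0.395 in late libraries. None of these ranges overlapped between fractions.

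Ric8b, a chaperone and exchange factor of the olfactory alpha subunit, had the smallest change. WT libraries were at 266 and 285 scaled TPM early and 279.7 and 286 late, cKO libraries at 237 and 238 early and 257 and 246 late. Early and late libraries overlapped in WT. Its log2 change was 0.06 (SE 0.06, 95% interval -0.09 to 0.21, adjusted p 0.429). With TPM as deposited it was 0.18 (adjusted p 0.0384), and with quantile normalization 0.29 (adjusted p 0.00357), so the call for Ric8b depended on the scaling.

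Adcy3, the cyclase that makes cyclic AMP in the cilia, had the largest rise. Early levels were 177 and 155 scaled TPM in WT and 173 and 123 in cKO, and late levels 415 and 498 in WT and 480.0 and 481 in cKO. Its lowest late library stood at 415 and the highest early one at 177. Adcy3 rose by 1.58 on the log2 scale (SE 0.12, adjusted p 2.2e-05), between 1.22 and 1.96 in the 4 lysates.

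The 3 channel subunits rose by unequal amounts. Cnga2 encodes the principal subunit, which can form a channel by itself. Its early levels were 431 and 446 scaled TPM in WT and 401 and 407 in cKO, and its late levels 458 and 519 in WT and 484 and 479 in cKO. Late libraries lay above early ones by a narrow margin. Its log2 change was 0.20 (SE 0.07, adjusted p 0.0365). With early and late libraries blocked by lysate the adjusted p was 0.0611. Leaving out any 1 library other than WT late replicate 1 also ended the call, with adjusted p from 0.0622 to 0.139.

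Cnga4 encodes a modulatory subunit that speeds the channel's response to calcium-calmodulin. Scaled TPM was 70.2 and 70.9 in early and 143 and 169 in late libraries of WT, and 77.5 and 58.2 in early and 197 and 188 in late libraries of cKO. Every late library exceeded every early one, and both cKO late libraries exceeded both WT late ones. Cnga4 rose by 1.32 on the log2 scale (SE 0.10, adjusted p 2.3e-05).

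Cngb1 encodes the beta subunit, which takes part in bringing the channel to the cilium. In WT, early libraries were at 74.2 and 75.4 scaled TPM and late ones at 104 and 123; in cKO, early libraries were at 75.6 and 66.7 and late ones at 109 and 119. Late libraries were apart from early ones, and the genotypes overlapped within each fraction. Cngb1 rose by 0.63 on the log2 scale (SE 0.08, adjusted p 0.00017). Per length, Cnga2 was 5.17 to 6.99 times Cnga4 in early and 2.45 to 3.20 times in late libraries. Against Cngb1, Cnga2 was 5.30 to 6.10 times as high in early and 4.02 to 4.43 times in late libraries.

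Ano2, the chloride channel at the end of the cascade, had early levels of 92.5 and 89.4 scaled TPM in WT and 84.8 and 74.5 in cKO, and late levels of 199 and 228 in WT and 195 and 184 in cKO. No late library was below 184 and no early one above 92.5. The log2 change was 1.23 (SE 0.08, adjusted p 1.9e-05), and the 4 lysates lay between 1.10 and 1.34.

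The order of the members by level differed between fractions. In early libraries Gnb1 was highest, followed by Gng13, Gnal, Cnga2, Ric8b and Adcy3, with no overlap between these neighbours. Ano2, Cngb1 and Cnga4 came last, and their ranges overlapped. Among late libraries Gnb1 was highest and Gnal next; Gng13, Cnga2 and Adcy3 overlapped one another and stood above Ric8b, Ano2 and Cnga4 overlapped below it, and Cngb1 was lowest. Over all 8 libraries the means ran from 2039 scaled TPM for Gnb1, rank 34 of the genes tested, to 93.4 for Cngb1, rank 2211.

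Each genotype was also tested separately. In WT, 7 of 9 members were called, 5 higher and 2 lower, where 54.8% of all genes were called (27.1% higher, 27.7% lower). In cKO the count was also 7, with 5 higher and 2 lower, where 58.1% of all genes were called (28.9% higher, 29.2% lower). Ric8b and Cnga2 did not pass in either genotype. For Cnga2 the log2 change was 0.15 (95% interval -0.09 to 0.40) in WT and 0.25 (0.01 to 0.49, adjusted p 0.0675) in cKO; in cKO it was called with TPM as deposited, quantile normalization or voom on the inferred reads, and in WT with quantile normalization. Some calls in 1 genotype depended on single libraries or on the setting. Gnal in cKO (0.38, adjusted p 0.0279) was lost when any 1 of the 4 cKO libraries was left out, with adjusted p from 0.0613 to 0.0911, with no filter on low values (0.0518) and with only the 4 cKO libraries fitted (0.0697). The Gnb1 call in WT was lost without WT early replicate 2 (adjusted p 0.0612) or WT late replicate 2 (0.0571), and in cKO without cKO early replicate 2 (0.0636) or cKO late replicate 2 (0.0517), with quantile normalization (0.0618) and with only the 4 cKO libraries fitted (0.0507). Without WT early replicate 2, the library with the conflicting tag, 7 members were called on the mean and 6 in WT.

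The members' coding sequences ranged from 201 nt for Gng13 to 3975 nt for Cngb1 (longest annotated, without the stop codon). Across the 9 members, late minus early change and coding length had a Spearman rank correlation of 0.77, and of 0.70 to 0.80 in the 4 lysates; across 14687 tested genes with a coding length it was 0.63. These are descriptions over genes, which share libraries and are not independent. When the longest transcript was used instead, it was 0.43 for the members and 0.36 for all 15516 genes with a length. Cngb1 has 9 annotated coding transcripts, olfactory neurons are known to use a shorter form than rod photoreceptors, and gene-level TPM does not separate them.

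Members were then set beside genes of like coding length. All 684 genes within 10% of the coding length of Adcy3 (3435 nt) had a smaller late minus early value than Adcy3; their median was 0.47. For Cnga4 (1725 nt), 99.3% of 1531 genes lay below it, and for Ano2 (3006 nt), 98.5% of 890. Cnga4 and Ric8b (1680 nt) are of similar coding length and differed by more than 1 on the log2 scale, 1.32 against 0.06. Gng13 (-1.73, SE 0.14) and Gnb1 (-0.61, SE 0.11) were below the lower quartiles of their neighbours in length, -1.62 and -0.50. For Gng13, 19.0% of 42 genes lay below it, and their median was -1.49. These 42 include other G gamma genes. For Gnb1 (1020 nt), 17.1% of 2261 lay below it, with a median of -0.18. Not every lysate was below its quartile. Gng13 was at -1.39 in WT lysate 1 and -1.52 in cKO lysate 1, and Gnb1 at -0.47 in cKO lysate 1. Gnal, Ric8b, Cnga2 and Cngb1 lay between the quartiles. For Gnal the placement uses the longest (1344 nt) of 8 annotated coding transcripts, and placement by a shorter form was not tested.

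**Figure D2:**
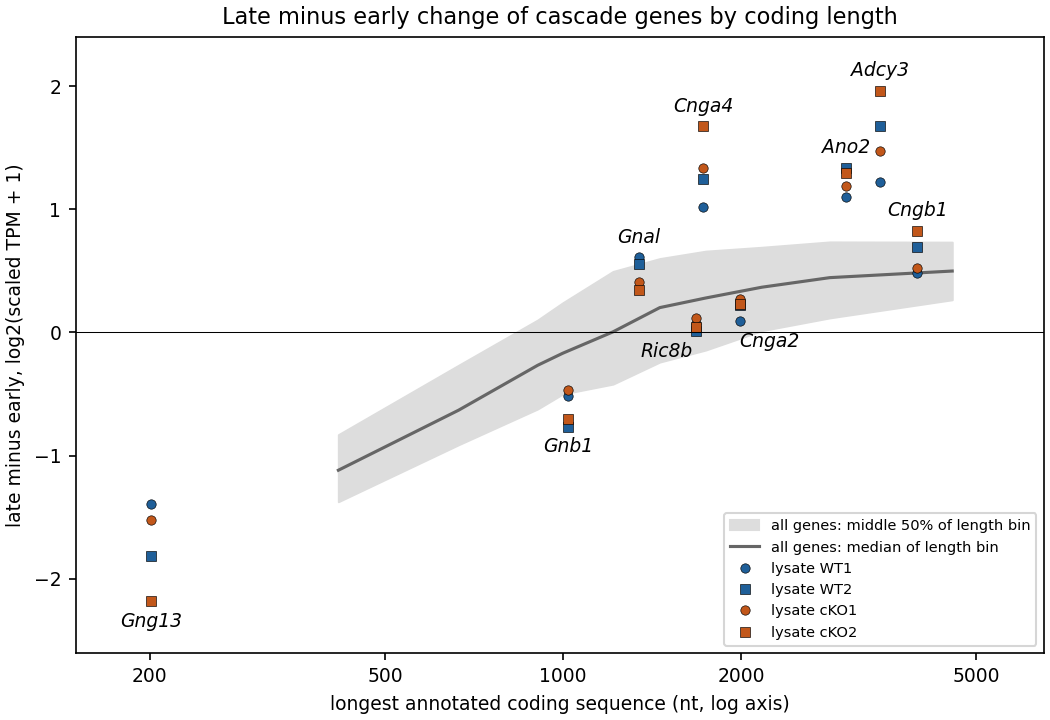
Late minus early change on the log2(scaled TPM + 1) scale (y axis) against longest annotated coding sequence (x axis, log scale); each symbol is a lysate, and the line and band give the median and the middle 50% of all genes in 10 bins of coding length, drawn at each bin's median length. Adcy3, Cnga4 and Ano2 sit above the band in all 4 lysates, and Gng13 is the shortest and lowest.

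Paralogs of each member, other genes of the same family, show how the member compares with its relatives. Of all genes, 34.3% were higher in late polysomes and 34.6% lower. All 10 tested genes of the other G gamma subunits were lower in late polysomes, with a median of -1.39, from Gngt2 (-1.63) to Gng7 (-0.53); Gng8, the gamma subunit of immature olfactory neurons and the most abundant of them, was at -1.49. With TPM as deposited 9 of the 10 were called, all but Gng7 (-0.43, adjusted p 0.0516). Their coding sequences of 204 to 249 nt are as short as that of Gng13. Gng13 made up 76.3 to 77.4% of the family's TPM in early and 71.0 to 75.9% in late libraries.

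Of 8 other G alpha genes, 6 were lower in late polysomes and 1 (Gnai3, 0.20) higher. Among all genes 34.6% were lower and 34.3% higher. Gnai2, the most abundant of them, was at -0.88 and Gnas, the alpha subunit that activates cyclases in most other cells, at -0.31. The call for Gnas was lost with quantile normalization (-0.14, adjusted p 0.0878) and that for Gnaz with TPM as deposited (-0.14, adjusted p 0.155). Gnal was at 0.48. Its share of the summed TPM of Gnal and these 8 genes was 37.6 to 41.3% in early and 50.2 to 59.6% in late libraries. The 8 are not all of the other G alpha genes, so this is not a share of the whole family. One of 3 tested G beta paralogs was lower (Gnb5, -0.30; adjusted p 0.0507 with TPM as deposited), and Gnb1 held 90.6 to 91.4% of G beta TPM in early and 85.9 to 89.7% in late libraries. Ric8a, listed under its older symbol Ric8, was higher (0.31).

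Adcy3 was 66.5 to 74.0% of adenylyl cyclase TPM in early and 86.1 to 87.6% in late libraries. Of 7 other cyclases tested, 2 were higher (Adcy7 at 0.54 and Adcy9 at 0.54) and 0 lower. Among all genes 34.3% were higher and 34.6% lower. Anoctamins other than Ano2 numbered 4 among the genes tested, and all 4 were higher: Ano8 at 1.05, Ano1 at 0.91, Ano10 at 0.32 and Ano6 at 0.31. Their coding sequences run from 1977 nt (Ano10) to 3312 nt (Ano8). The medians of all genes in the bins that hold these lengths were 0.37 and 0.45. Ano10 and Ano6 lay below the median of their bin, and Ano8 and Ano1 above it. Ano2 was 35.7 to 38.4% of anoctamin TPM in early and 43.2 to 52.1% in late libraries. None of the channel paralogs Cnga1, Cnga3 and Cngb3 reached the level for testing, and the 3 olfactory subunits held at least 99.7% of the family's TPM in every library. Cnga3, the subunit of guanylyl cyclase D neurons, was at a mean of 0.45 in early and 0.79 in late libraries.

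**Figure D3:**
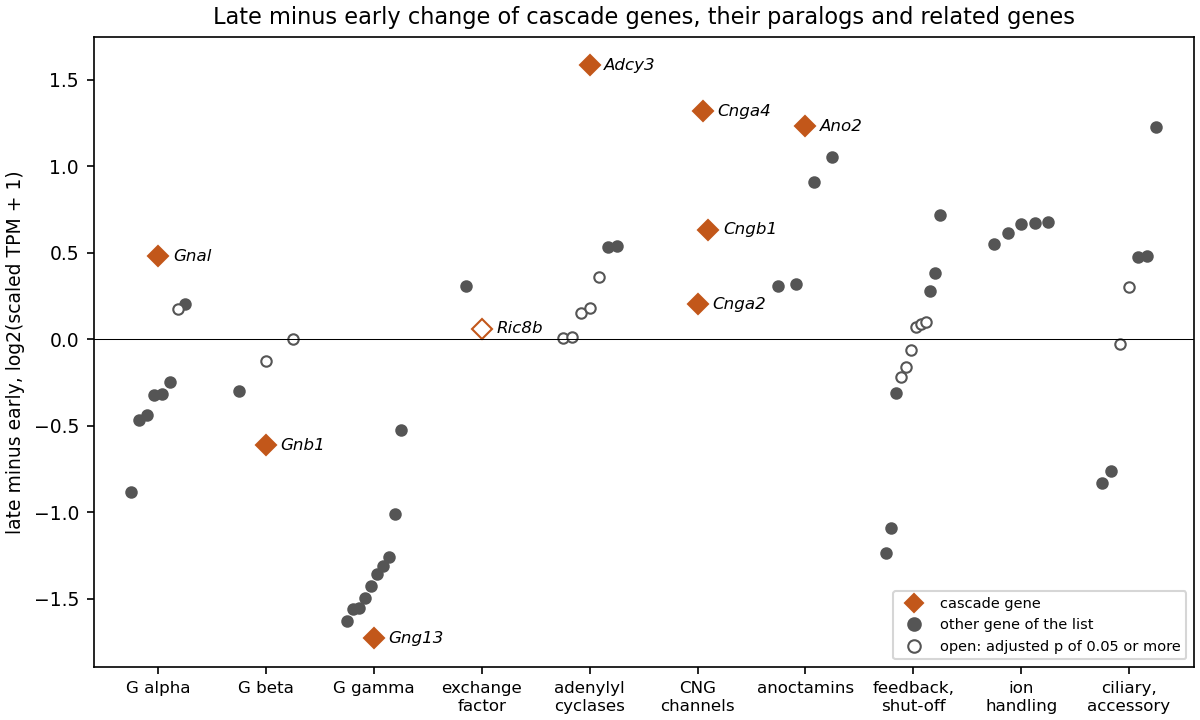
Late minus early change on the log2(scaled TPM + 1) scale (y axis) of the cascade genes (diamonds), their tested paralogs and 3 lists of related genes (circles), by family or list (x axis); open symbols have an adjusted p of 0.05 or more. All tested G gamma genes lie below 0, the 5 tested ion handling genes and all tested anoctamins above 0. Gnal, Adcy3 and Ano2 lie above all the tested paralogs listed for them, and Gng13, Gnb1 and Ric8b below theirs.

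Genes that end or adapt the response were called no more often than genes at large. Of 12 feedback and shut-off genes tested, 3 were higher in late polysomes and 3 lower, where 34.3% of all genes were higher and 34.6% lower, with a median of 0.01 (0.11 with TPM as deposited and 0.05 with quantile normalization). Pde1c, the calcium-calmodulin dependent phosphodiesterase of olfactory cilia, was at 0.72, Camk2b, a calcium-calmodulin dependent kinase subunit, at 0.38 and Pde4a, a phosphodiesterase, at 0.28. The calmodulin genes Calm2 and Calm3 fell by 1.24 and 1.09, and Arrb2, an arrestin, by 0.31. Calm2 and Calm3 are expressed in most cells and have coding sequences of 447 nt.

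All 5 tested ion handling genes were higher in late polysomes, where 34.3% of all genes were, with a median of 0.67. Slc24a4 has a coding sequence of 1866 nt and the other 4 have 3615 to 3729 nt; the medians of all genes in the bins that hold these lengths were 0.28 and 0.50, and the upper quartiles 0.66 and 0.73. The list's values thus lay above those medians, and near or below the upper quartiles. Slc12a2, the transporter that loads chloride into the neuron, was at 0.61, and Slc24a4, the exchanger that removes calcium from the cilium, at 0.67. The calcium pumps Atp2b1, Atp2b4 and Atp2b2 were at 0.68, 0.67 and 0.55. Atp2b2 had a mean of only 2.6 scaled TPM, with 43 to 157 reads per library. It did not pass in either genotype alone (limma adjusted p 0.209 in WT and 0.0857 in cKO). Atp2b3 and Best2 were below the level for testing. Among 7 ciliary targeting and accessory genes, 3 were higher and 2 lower, where 34.3% of all genes were higher and 34.6% lower. The 3 higher genes were Gfy (1.23), Rtp1 (0.48) and Rtp2 (0.48). Gfy is a Golgi protein needed for placing cyclase 3 in the cilium, and Rtp1 and Rtp2 are receptor transporters. Stoml3, a stomatin-like protein of the cilium, and Omp, the olfactory marker protein, fell by 0.76 and 0.83; with quantile normalization Omp was at -0.56 (adjusted p 0.0585). Transcripts of mature olfactory neurons thus lay on both sides of 0, and the summed level of the mature markers was 13099 to 15593 in early and 5854 to 7504 in late libraries. Most of this sum came from S100a5, Omp and Stoml3, at means of 3739, 3658 and 2719. These 3 were lower in late polysomes and have coding sequences of 279, 489 and 861 nt. Rtp1 (789 nt) and Kirrel2 (2100 nt) were higher. The part of coding length in the sum was not tested.

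The genotypes were compared next, in each fraction and on the mean of both fractions of a lysate. No member was called in early polysomes (0 of 9, where 0.0435% of all genes were called) or in late polysomes (0 of 9, where 0.0124% were). On the lysate means the count was also 0, with 0.00621% of genes called. At an unadjusted p under 0.05, 1 member passed in early (6.64% of all genes), 0 in late (9.36%) and 1 on the lysate means (11.3%), and it was Ric8b both times. Voom on the inferred reads also called 0 members in these 3 comparisons. Log2 differences of cKO from WT ran from -0.21 (Ric8b) to 0.02 (Gng13) in early and from -0.26 (Gnal) to 0.30 (Cnga4) in late polysomes. A missed threshold with 2 libraries in each group does not show equal levels, so intervals are given for each member.

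Ric8b was lower in every cKO library than in any WT library: 237 to 257 scaled TPM against 266 to 286. The 4 libraries of a genotype come from 2 lysates. On the lysate means 20.8% of all genes were lower in cKO without overlap. The share of all genes with such a split over all 8 libraries was not counted. In early polysomes the difference was -0.21 (95% interval -0.42 to -0.003, adjusted p 0.748), in late polysomes -0.17 (-0.38 to 0.04, adjusted p 0.605), and on the lysate means -0.19 (SE 0.07, interval -0.36 to -0.03, adjusted p 0.403), a 1.14-fold lower level. It kept its sign in the 13 alternatives run on the lysate means, between -0.24 and -0.16, and passed in none.

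Some other members had libraries of the 2 genotypes apart without passing the test. In early polysomes 3 members were lower in both cKO libraries than in both WT libraries, Ric8b, Cnga2 and Ano2, against 17.6% of all genes. For Ano2 the difference was -0.19 (-0.44 to 0.05) and for Cnga2 -0.12 (-0.36 to 0.12). In late polysomes 3 were lower without overlap (20.1% of genes), Gnal, Ric8b and Ano2, and 1 was higher, Cnga4 (20.5% of genes). Gnal was at 931 and 973 in cKO late against 1093 and 1193 in WT late libraries (-0.26, -0.54 to 0.02, adjusted p 0.553). Ano2 was at -0.17 (-0.41 to 0.08), and Cnga4 at 0.30 (-0.02 to 0.63, adjusted p 0.552), with 188 and 197 in cKO late against 143 and 169 in WT late libraries. Single libraries moved these values. Ano2 in early polysomes ran from -0.29 without cKO early replicate 1 to -0.099 without cKO early replicate 2. In late polysomes Ano2 ran from -0.26 without WT late replicate 1 to -0.069 without WT late replicate 2, and Cnga4 from 0.19 to 0.42 without the same libraries. On the lysate means 4 members were lower without overlap (20.8% of genes): Gnal, Ric8b, Cnga2 and Ano2.

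No cell type marker was called between genotypes, and some summed levels stood apart. The mature neuron markers summed to 7472 to 7504 in WT late and 5854 to 7257 in cKO late libraries, and to 13099 to 15593 in WT early and 14057 to 14376 in cKO early ones. Immature neuron markers, 6 of 6 in the table, summed to 2800 to 2967 in WT late against 2528 to 2552 in cKO late, and to 2345 to 2357 in WT early against 2157 to 2174 in cKO early libraries. Members of these lists did not all go 1 way: in late polysomes Kirrel2, a mature marker, was at 0.03 and Gng8, an immature one, at 0.17, while S100a5 was at -0.41 and Dcx at -0.46. Sustentacular markers, 5 of 5 in the table, were at 4123 to 4481 in WT late and 4593 to 4998 in cKO late libraries, and overlapped in early ones, at 1653 to 1821 in WT and 1405 to 1895 in cKO. Microvillous markers, 4 of 4 in the table, did not overlap between genotypes: they summed to 69.1 to 75.9 in cKO early and 55.2 to 64.3 in WT early libraries, and to 102 to 112 in cKO late and 77.2 to 82.8 in WT late ones. Ciliated respiratory markers, 2 of 2 in the table, were also higher in cKO without overlap. They summed to 149 to 160 in cKO early and 142 to 144 in WT early libraries. In late libraries they summed to 117 to 118 in cKO and 95.9 to 98.5 in WT. The part of these differences in the members' values was not tested.

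For the remaining members the genotype intervals spanned 0 on both sides. Gnb1 was at -0.04 (-0.39 to 0.30) in early and 0.01 (-0.33 to 0.36) in late polysomes, and Gng13 at 0.02 (-0.44 to 0.48) and -0.23 (-0.69 to 0.23). Adcy3 was at -0.19 (-0.57 to 0.20) and 0.08 (-0.30 to 0.47), and Cngb1 at -0.07 (-0.33 to 0.19) and 0.01 (-0.25 to 0.27). Gnal in early polysomes was at -0.06 (-0.34 to 0.22), Cnga4 at -0.07 (-0.40 to 0.26), and Cnga2 in late polysomes at -0.02 (-0.26 to 0.22). These intervals leave room for differences of about the size seen for Ric8b and larger. In the related lists 0 genes were called for genotype in any comparison.

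**Figure D4:**
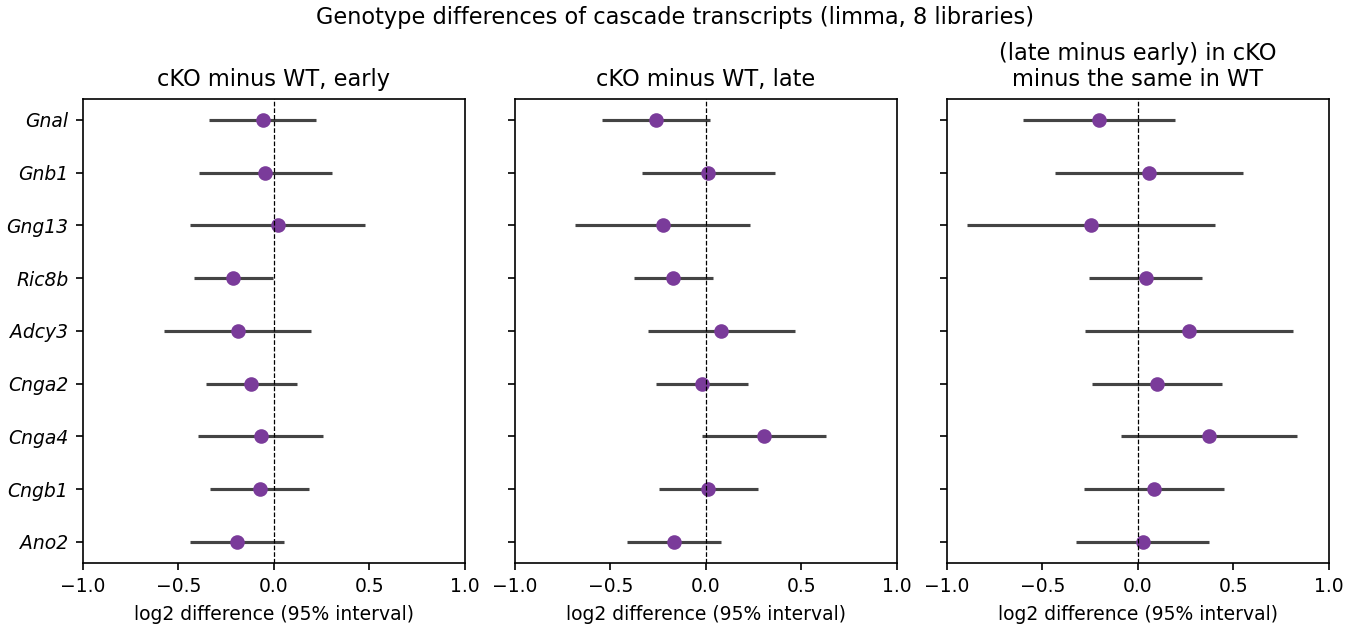
Log2 difference (x axis, point) with its 95% interval (line, not adjusted for the number of genes) for each cascade gene (y axis) between cKO and WT in early polysomes, in late polysomes, and in the difference of differences. Ric8b in early polysomes has the only interval that leaves out 0; no member passed the adjusted threshold.

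The difference of differences asked whether the shift from early to late polysomes differed between genotypes. No member was called (0 of 9, where 0.00621% of all genes were called), all with an adjusted p of 1.00, and 0 had an unadjusted p under 0.05 (2.85% of all genes). Voom also called 0. Values ran from -0.25 (Gng13, interval -0.90 to 0.40) to 0.37 (Cnga4, SE 0.20, interval -0.09 to 0.83). The value for Cnga4 was 0.17 without cKO early replicate 2 and 0.58 without cKO early replicate 1. Cnga4 rose from early to late by 1.02 and 1.24 in the WT lysates and by 1.34 and 1.67 in the cKO lysates. Changes in both cKO lysates were above those in both WT lysates for 2 members, Cnga4 and Cnga2 (14.9% of all genes), and below for 1, Gnal (14.3%). Gnal had 0.61 and 0.55 in the WT lysates against 0.41 and 0.35 in the cKO lysates.

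For each member, the tested gene with the most similar pattern was the one with the smallest root-mean-square distance between centred log2 profiles over the 8 libraries, among 12190 genes with a mean TPM of at least 5. Cngb1 was nearest to Slc24a4, the calcium exchanger on the ion handling list, at a distance of 0.04. For Adcy3 it was Sec14l3 (0.06), for Gng13 Dpy30 (0.03), for Gnb1 Ap3s2 (0.03), for Gnal Cfap70 (0.05), for Ric8b Sfmbt1 (0.04), for Cnga2 Psmd5 (0.03), for Cnga4 Anxa11 (0.09) and for Ano2 Stip1 (0.05). Each member lay closer to its named gene than to any other member. The closest pair of members, Ric8b and Cnga2, was 0.10 apart. Profiles over 8 libraries of 4 groups mostly record the late minus early change, so a short distance says that 2 genes have a similar change.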

How the data were processed

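The authors deposited 1 table of TPM per gene symbol and library. Libraries were made with a stranded low-input total RNA kit, per the labels' protocols. FastQC, cutadapt, STAR, DESeq2 and the mm10 build are named in the submitters' processing notes, without roles; the counting method and annotation are not given in the sources used here. The Cre line and 1 gene of the feedback list are not reported here. The members and related lists were chosen with earlier results of these data known. Named genes were the members, Mex3a, called or most abundant genes of each list, and each member's nearest profile.

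TPM was scaled by median ratios, and log2(scaled TPM + 1) of 16097 genes with mean TPM of at least 1 was fitted with limma 3.58.1 in R 4.3.3 (4 groups together, mean-variance trend, two-sided, Benjamini-Hochberg, threshold 0.05). Fold changes on this scale understate low genes. Genotype was also tested on the 4 lysate means. Reads were inferred where the values of a gene were whole multiples of a step (tolerance 0.001; all 19783 genes above 0 in 2 or more libraries). With 200 genes changed 3-fold in simulated data, the late against early comparison recovered 200 of them with 21 false calls among 15975 genes. In the same way 200 were recovered for genotype in early polysomes and on the lysate means, 197 in late polysomes and 162 in the difference of differences, with 15 to 36 false calls. In each comparison the false share of the calls was above the threshold of 0.05. The simulated libraries had independent noise, no lysate effect and no median-ratio scaling. A 3-fold change is larger than any genotype difference of the members, and recovery of differences of their size was not simulated. Early and late libraries of 1 number bear the same lysate name, which pairs them; deviations from group means correlated at 0.0862 in WT and 0.0502 in cKO. Coding lengths came from GENCODE vM21, which held 96.0% of symbols. Figures were drawn with matplotlib 3.10.9.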

Additional observations from a re-analysis of the deposited data

How the results depend on the processing

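Pseudocounts of 0.1 and 0.5, no filter or a minimum mean of 5 TPM, quantile normalization, unscaled TPM, no trend, voom on inferred reads, each library left out, replicate blocks and fits of only the 4 libraries compared were run. The number of members called stayed within 1.5 times its value in each: 7 to 9 for late against early on the mean, 6 to 9 in WT, 5 to 8 in cKO and 0 for each genotype comparison and the difference of differences. With the replicate block by lysate the counts were 7 on the mean, 7 in WT and 7 in cKO. Cnga2 on the mean was the single member call that changed. With the block by number the counts were 0 for genotype. The labels used here do not say what WT and cKO libraries of 1 number share. Their deviations from group means correlated at 0.331 in early and 0.142 in late. Those values are above the 0.0862 (WT) and 0.0502 (cKO) of early and late libraries of 1 lysate. Whether equal numbers mark a shared batch was not tested. Late minus early values of the members kept their sign in all settings, except Ric8b in WT, which ran from -0.0089 to 0.087 as libraries were left out. Several genotype differences changed sign, among them Gng13 in late and Adcy3 in early polysomes (-0.23 and -0.19 as reported); the cause was not tested. With TPM as deposited, Gng13 in early was -0.037, Gnb1 in late -0.0249 and Cngb1 in late -0.026; with quantile normalization, Gng13 in early was -0.11 and Gnb1 in late -0.089. As libraries were left out, early differences ran from -0.15 to 0.032 (Gnal), -0.14 to 0.049 (Gnb1), -0.051 to 0.092 (Gng13), -0.43 to 0.057 (Adcy3), -0.27 to 0.13 (Cnga4) and -0.16 to 0.016 (Cngb1), and late ones from -0.024 to 0.051 (Gnb1), -0.52 to 0.071 (Gng13), -0.051 to 0.21 (Adcy3), -0.11 to 0.071 (Cnga2) and -0.10 to 0.13 (Cngb1). Over all genes, late against early in WT gave 8824 calls and 5874 without WT early replicate 2. Genotype calls over all genes numbered 7 in early (0 to 12 over the alternatives), 2 in late (0 to 15), 1 on the lysate means (0 to 82, highest with the block by number) and 1 in the difference of differences (0 to 7). Protein length was not run. With 2 libraries in each group, genotype intervals of the members were 0.42 to 0.92 wide on the log2 scale.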
